A study of Bos taurus with 27 samples.

Results

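The 150 genes described here were among those that differed most between individual calves in the ileum, whatever the calves had been fed. They were taken from a count table of 24616 genes, 11429 of which had enough counts to be tested and 4726 of which were eligible. A gene was eligible with a mean log2 CPM (counts scaled to library size and composition) of at least 5 and an absolute correlation of at most 0.7 with the first principal component of all genes. The 10 most abundant genes and 3 other identifiers were set aside. Of the remaining eligible genes, the 150 with the largest standard deviation (SD) between calves of the same feeding group were taken as members. Those 3 identifiers would have ranked in the first 3 by SD, so the most variable genes are not among the members. The members were thus chosen by the SD of log2 CPM pooled over the 3 feeding groups, which is given below as a description and not as a finding.

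The tissue came from 27 newborn male Holstein calves at 51 h of age, in 3 groups of 9 that received colostrum immediately after birth (0 h), 6 h after birth or 12 h after birth. No other treatment or genotype separates the groups, and each library is 1 calf. The labels call the tissue ileum. This could not be checked against marker genes, because the files give Ensembl cattle identifiers without gene names and 0 of the 24616 identifiers matched the gene table used as reference. For the same reason no role, genome position or sequence is given for any member.

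The ileum is the last part of the small intestine. It absorbs bile acids and what earlier segments left, and in young calves it carries a large Peyer's patch, a lymphoid organ in which B cells multiply. Colostrum, the first milk, brings maternal antibodies that the gut of a newborn calf takes up only for a short time after birth. A piece of ileum holds absorptive cells, lymphoid cells, muscle and nerve. In such bulk tissue, fewer cells of a type and less RNA per cell cannot be told apart.

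Libraries held between 972578 and 7125552 counts, with 1152690 to 3234226 in the 0 h group, 972578 to 2262714 in the 6 h group and 1137558 to 7125552 in the 12 h group. The deepest library, 12 h replicate 7, also had the largest share of counts in the 10 genes of highest abundance, 42.5%, against 30.0% to 36.6% in the other 26. It was the calf furthest from its feeding group for only 3 of the 150 members.

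The members' SD ran from 2.52 on the log2 scale down to 0.45, with a median of 0.59, while the median over all eligible genes was 0.22. An SD of at least 1, which means that a calf 1 SD from its group differed from it by at least 2-fold, was reached by 17 members. The threshold fell in a continuous stretch of values: the last member, ENSBTAG00000031160, had an SD of 0.4506, and the first gene left out, ENSBTAG00000019091, had 0.4499. Between the highest and the lowest calf, the members differed by a median of 5.13-fold on the scale of log2 CPM with a prior count of 2, 31 of them by more than 10-fold and 39 by less than 4-fold. Members were moderately abundant, with a median level of 86.6 normalised CPM against 63.5 for eligible genes. Counting noise made up a median of 3.69% of their variance and at most 16.4%. It was computed from each feeding group's mean level and each library's size, which understates it in calves far below that mean.

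**Figure D1:**
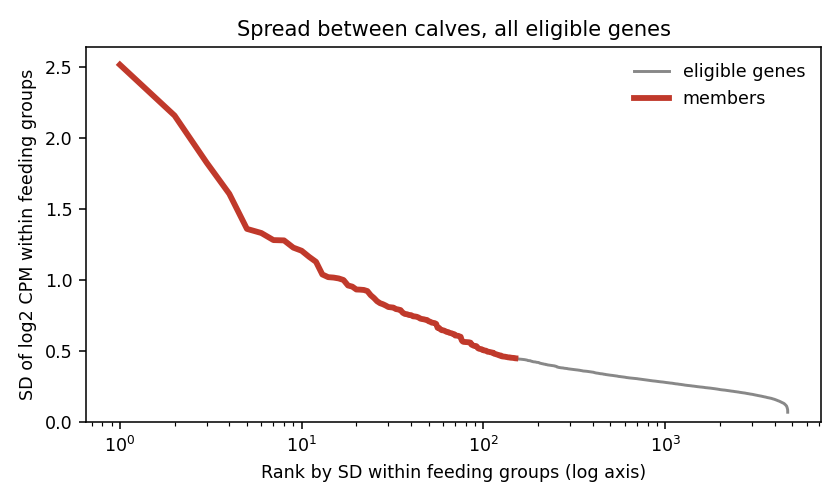
SD of log2 CPM within feeding groups (vertical axis) of the 4726 eligible genes, ranked from the most to the least variable (horizontal axis, log scale), with the 150 members in red. The 3 identifiers set aside, which would have ranked first, are not drawn. Only the first few genes stand clear of the rest, and the curve passes the last member at an SD of 0.45 without a step.

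The spread was also measured in calves whose own spread had no part in the choice, for lists close to the 150 members. The same rule was applied to 2 feeding groups, and the SD of the 150 genes so chosen was measured in the 9 calves of the third. These lists shared 124 genes with the 150 members when 0 h was left out, 114 when 6 h was and 127 when 12 h was. In the 0 h calves, the genes chosen in the other groups had a median SD of 0.52, against 0.21 for eligible genes. In the 6 h calves the medians were 0.54 and 0.23, and in the 12 h calves 0.55 and 0.20. The chosen genes lay at a median percentile of 97.97, 97.27 and 98.18 of the eligible genes of the group left out, and 124, 116 and 127 of the 150 lay in the top 10%. These values share the scaling of the libraries, and no test was applied to them. The genes set aside were the same each time, and the 10 most abundant were found over all 27 libraries. When each feeding group chose its own 150 genes, 62 were shared by 0 h and 6 h, 77 by 0 h and 12 h, 63 by 6 h and 12 h, and 44 by all 3.

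**Figure D2:**
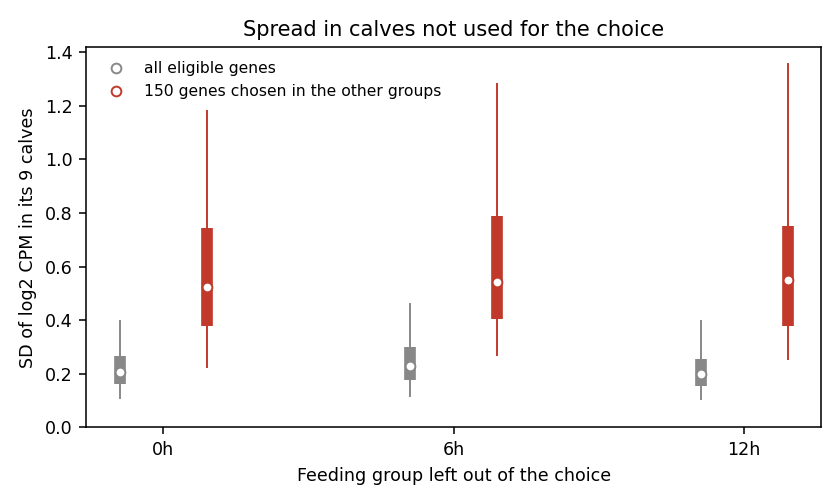
SD of log2 CPM (vertical axis) in the 9 calves of the feeding group left out (horizontal axis), for 150 genes chosen in the other groups (red) and for all eligible genes (grey). Circles are medians, thick bars the 25th to the 75th percentile and thin lines the range from the 5th to the 95th percentile. The medians of the chosen genes, 0.52 to 0.55, lie above the 95th percentile of all eligible genes in each group.

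The spread took different forms. In 31 members the values were skewed by calves far below the others (skewness below -1), and in 4 members by calves far above (skewness above 1). The calf furthest out held at least 50% of the squared deviation in 2 members, and the 2 furthest calves did so in 19. Looked at after the values were seen, 6 members had an empty gap of at least 2 on the log2 scale between neighbouring calves. No other eligible gene had a gap that wide, the widest being 1.45. Since a wide gap raises the SD, this contrast follows in part from the choice of the members.

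ENSBTAG00000037605, the member with the largest SD, was close to absent in 9 calves and well expressed in 18. At 0 h its lowest, median and highest values were 2.51, 84.2 and 159.5 normalised CPM. The 6 h calves gave 0.673, 95.9 and 149.0, and the 12 h calves gave 1.76, 84.9 and 191.9. No calf lay between 3.48 and 69.4 CPM, a step of 15.9-fold with the prior count. The 0 h group held 1 of the low calves and the 6 h and 12 h groups 4 each, so low and high calves occurred in every group. Their values rested on 1 to 11 counts, and the highest upper bound of their 95% exact (Clopper-Pearson) intervals was 8.91 CPM, far under the lowest of the high calves. These intervals cover counting error only. edgeR's quasi-likelihood test put the 12 h calves at -0.22 relative to 0 h on the log2 scale (SE 0.777, adjusted p = 0.9997) and the 6 h calves at -0.49 relative to 0 h (SE 0.821, adjusted p = 1).

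ENSBTAG00000048183 was low in 4 calves, 2 at 0 h and 2 at 6 h, and in none at 12 h. Its lowest, median and highest values were 2.88, 235.7 and 492.2 CPM at 0 h, 1.53, 168.7 and 297.0 at 6 h and 72.5, 167.5 and 498.2 at 12 h. The 4 low calves held 2 to 10 counts, with bounds up to 11.3 CPM, and the next calf stood at 60.8 CPM. The medians of the 3 groups were thus of one order, and the groups overlapped.

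ENSBTAG00000018499 was low in 1 calf of each group. Its values were 1.77, 79.7 and 102.2 CPM at 0 h (lowest, median, highest), 0, 63.9 and 91.3 at 6 h, and 0.878, 52.9 and 135.7 at 12 h. The calf without any count, 6h replicate 7, had an upper bound of 2.71 CPM by the same exact interval, and 3 counts in that library would be 2.20 CPM. All other calves were at 21.4 CPM or higher.

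ENSBTAG00000047767 was low in 2 calves, both fed at 12 h, at 1.24 and 2.41 CPM, and the next calf stood at 69.6 CPM. Its values were 147.8, 183.4 and 338.5 CPM at 0 h, 82.4, 197.3 and 317.6 at 6 h and 1.24, 122.0 and 344.7 at 12 h. The remaining pair had 1 low calf each. ENSBTAG00000034645 stood at 0.314 CPM in 0h replicate 9 (1 count, bound 1.75 CPM) and between 24 and 63.1 CPM in the other 26. ENSBTAG00000032074 stood at 5.37 CPM in 6h replicate 5 (7 counts, bound 11.1 CPM) and between 29.1 and 254.0 CPM in the others. The low calves of these 6 members were not one set of animals: 15 calves were low in at least 1 of them, 5 in 2, and none in more than 2.

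**Figure D3:**
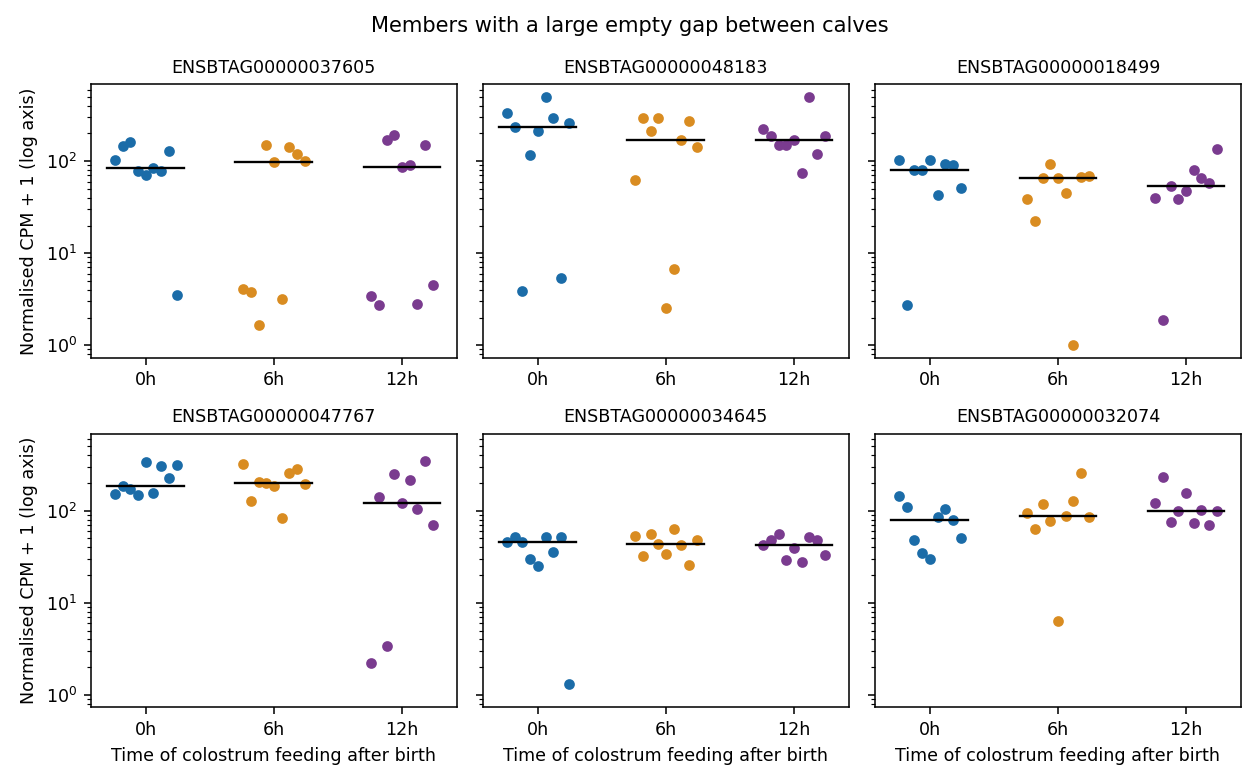
Normalised CPM plus 1 (vertical axis, log scale) of the 6 members with an empty gap of at least 2 on the log2 scale, by time of colostrum feeding. Points are calves in order of replicate and lines the medians of 9. From 1 to 4 calves lie at or under 5.73 CPM in 5 of the genes, far below the others, and 9 calves do so for ENSBTAG00000037605.

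Other members near the top of the list varied without a gap of at least 2 on the log2 scale. ENSBTAG00000020813 ran from 3.43 to 123.8 CPM at 0 h with a median of 32.1, from 4.96 to 182.7 at 6 h with a median of 64.6, and from 17.6 to 195.7 at 12 h with a median of 113.3. The groups overlapped widely although the medians rose in that order. edgeR put the 12 h calves 1.41 above the 0 h calves on the log2 scale (SE 0.504, unadjusted p = 0.0100, adjusted p = 0.9997). ENSBTAG00000039928 ran from 27.4 to 207.7 CPM at 0 h, from 21.4 to 438.4 at 6 h and from 15.1 to 169.2 at 12 h, with medians of 105.7, 122.0 and 37.4. ENSBTAG00000024180 ran from 33.9 to 220.6 CPM at 0 h, from 10.8 to 152.8 at 6 h and from 11.1 to 188.6 at 12 h, with medians of 131.4, 61.9 and 120.0. In both, calves of one feeding group differed more than the medians of the groups did.

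Some of the members varied together, while most did not. Correlations were taken over the 27 calves after removal of the feeding group means, which leaves differences between calves of one group. The rule did not use them, but the points share their libraries. Over the 11175 pairs of members the median r was 0.0444, and r reached 0.6 in 5.07% of pairs, against 1.46% of pairs of the other 4576 eligible genes, whose smaller spread leaves more room for counting noise. Average-linkage clustering at r = 0.6 put 53 members in 4 sets of at least 4, called A to D here. Of the other 97 members, 66 stood alone. Pairs inside sets A to D are counted in the 5.07%. The sets were read from these values, so none of them was tested.

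**Figure D4:**
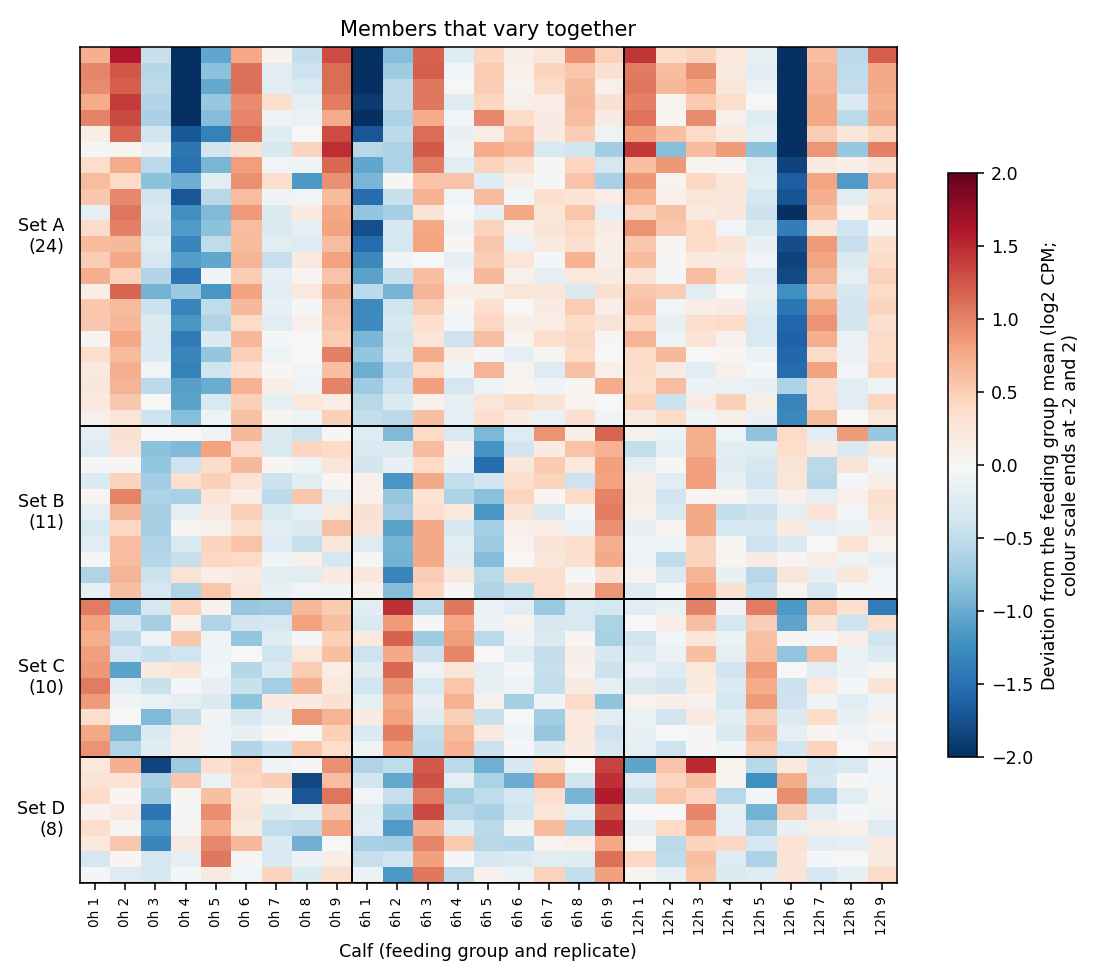
Deviation of log2 CPM from the feeding group mean (colour, red higher and blue lower) for the 53 members of sets A to D (rows) in 27 calves (columns, by feeding group and replicate). Set A is blue throughout in 0h replicate 4, 6h replicate 1 and 12h replicate 6, while sets B and D share much of their pattern.

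Set A was the largest and the tightest, with 24 members and a median r of 0.88 between them. The median r was 0.92 in the 0 h calves alone, 0.81 at 6 h and 0.91 at 12 h. It stayed between 0.84 and 0.90 when any single calf was left out. Sets of 22 or 23 genes found without the 0 h, the 6 h or the 12 h calves held 21, 23 and 22 members of set A, and their median r in the calves left out was 0.92, 0.81 and 0.91. All 24 members were kept together at a looser limit of r = 0.5, at a stricter limit of r = 0.7 and with Spearman's rho in place of r.

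In set A, 1 calf of each feeding group stood far below the others. 12h replicate 6 was the lowest of its group for 24 of 24 members, 0h replicate 4 for 22 and 6h replicate 1 for 21. The members lay on average 2.02, 1.52 and 1.28 below the group mean in these calves, on the log2 scale. Others were low to a lesser degree: all 24 members were below the group mean in 0h replicate 5 (-0.68 on average) and 0h replicate 3 (-0.42), and 23 were in 6h replicate 2 (-0.48). Together the 24 members took from 0.155% to 1.18% of the counts at 0 h, with a median of 0.566%. The range was 0.224% to 1.4% at 6 h with a median of 0.813%, and 0.0995% to 1.06% at 12 h with a median of 0.756%. The 3 feeding groups thus overlapped almost entirely.

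The most abundant members of set A were ENSBTAG00000048167 and ENSBTAG00000046842. ENSBTAG00000048167 had lowest, median and highest values of 370.4, 1694 and 4720 CPM at 0 h, 511.3, 3297 and 6203 at 6 h, and 166.8, 2844 and 3829 at 12 h. ENSBTAG00000046842, the member closest on average to the rest of its set, had 230.1, 995.2 and 2621 CPM at 0 h, 331.2, 1657 and 3214 at 6 h and 89.3, 1697 and 2249 at 12 h. Of all pairs of members these had the highest r, 0.997, and the ratio of the first to the second stayed between 1.54 and 2.01 in the 27 calves while the first varied 37.0-fold between calves and the second 35.6-fold. CPM are not corrected for gene length, so this is no ratio of transcript numbers, and whether reads of near-identical copies were shared between identifiers is not given in the sources used here. ENSBTAG00000042484, the member of set A with the largest SD, ran from 1.92 to 119.7 CPM, and the same 3 calves were the lowest of their groups.

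Set A was also set beside measures of the libraries. The mean deviation of its members correlated with the log2 library total at r = -0.19 (Spearman's rho -0.316), with the share of the 10 most abundant genes at r = 0.26 (rho 0.214) and with the number of genes with a count at r = -0.24 (rho -0.410), over 27 calves with feeding group means removed. Their part in the result was not tested. Outside the members, 122 of the tested genes followed the mean of set A at r of at least 0.6.

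Sets B and D, with 11 and 8 members, followed one course through the calves, their mean deviations correlating at r = 0.82. The median r was 0.70 inside each. Set B was highest in 6h replicate 9 (0.82 above the group mean) and lowest in 6h replicate 5 (-0.85) and 6h replicate 2 (-0.82). Set D was highest in the same calf, 6h replicate 9, at 1.23, followed by 6h replicate 3 at 1.05, and lowest in 0h replicate 3 at -0.98. ENSBTAG00000033221, the member closest to the rest of set B, ran from 183.4 to 428.8 CPM at 0 h, 140.3 to 453.4 at 6 h and 181.6 to 335.5 at 12 h. ENSBTAG00000015056, its counterpart in set D, ran from 37.1 to 198.0, 53.9 to 233.4 and 49.2 to 189.4 CPM. Their mean deviations followed the second principal component of all tested genes at an absolute r of 0.89 for set B and 0.80 for set D, a component the rule for members did not use but to which the members themselves contribute. The sets were less firm than set A. At r = 0.5 they merged into 1 group of 19 members. At r = 0.7, 7 of 11 and 5 of 8 members stayed together, and with Spearman's rho 5 of 11 and 5 of 8 did. The median r in the 12 h calves alone was 0.57 and 0.59. Sets sharing most with set D, found without the 0 h, 6 h or 12 h calves, had a median r of 0.71, 0.68 and 0.71. In the calves left out it was 0.50, 0.66 and 0.52. A set sharing 7 members with set B, found without the 12 h calves, went from 0.76 to 0.42.

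Set C, of 10 members with a median r of 0.75, ran partly opposite to set B (r = -0.43 between the mean deviations). It was highest in 6h replicate 2, 0.97 above the group mean, where sets B and D were low, and for 9 of 10 members this calf was the highest of its group. The member closest to the rest, ENSBTAG00000024184, ran from 75.3 to 216.8 CPM at 0 h, 72.7 to 186.8 at 6 h and 95.7 to 184.1 at 12 h. Its mean deviation correlated at 0.65 with the first principal component, so the limit on that component removed from the members genes that follow it more closely. In addition, 523 tested genes outside the members followed set C at r of at least 0.6. At r = 0.7, 8 of the 10 members of set C stayed together, and with Spearman's rho 9 did. Sets of 5, 9 and 4 genes found without the 0 h, 6 h or 12 h calves held 3, 5 and 4 members of set C. Their median r in the calves left out was 0.79, 0.73 and 0.78. The lowest correlation of any 2 members, -0.73, joined ENSBTAG00000031761 of set C with ENSBTAG00000014529 of no set. It was -0.75, -0.80 and -0.67 in the 0 h, 6 h and 12 h calves.

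**Figure D5:**
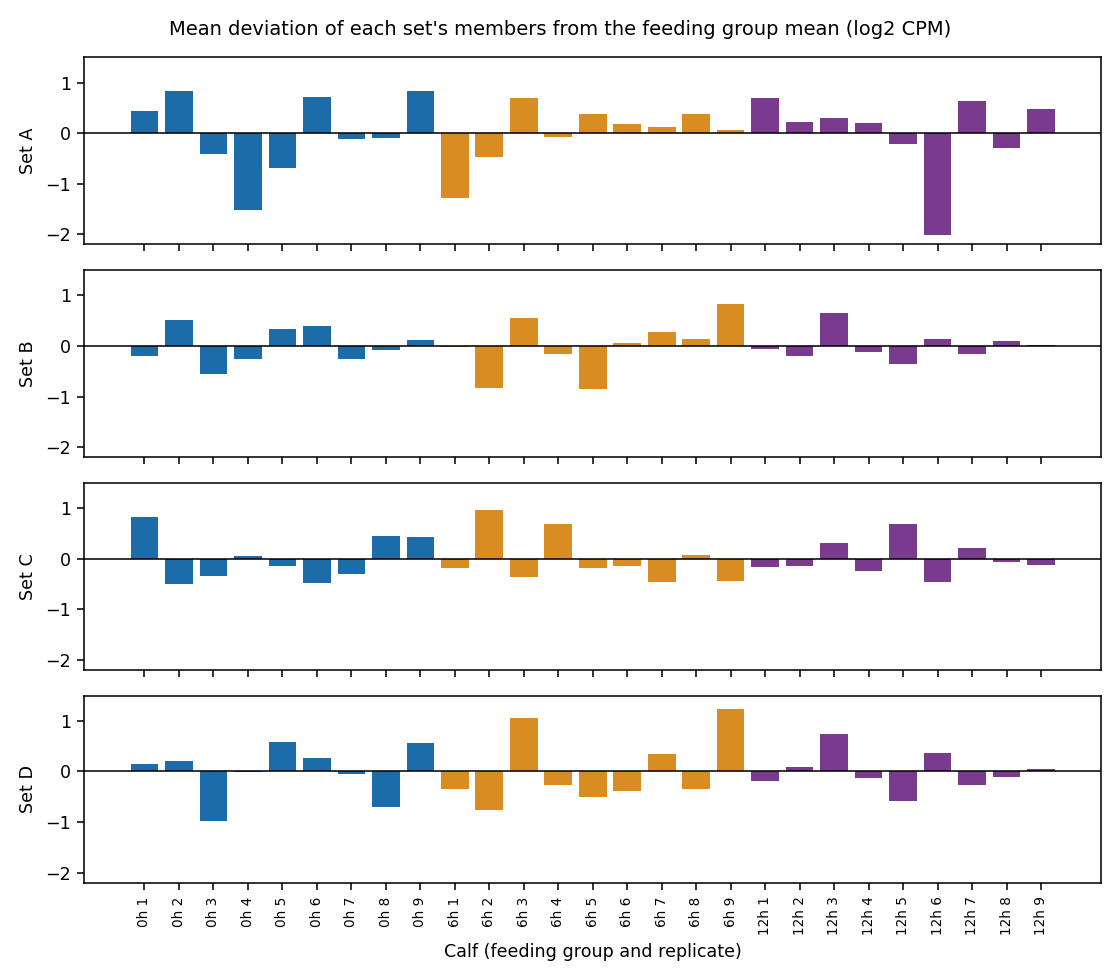
Mean deviation of the members of sets A to D from the feeding group mean (log2 CPM, vertical axis) in each calf (horizontal axis; blue 0 h, orange 6 h, purple 12 h). Set A falls to -1.52, -1.28 and -2.02 in 1 calf of each feeding group, with smaller falls in 0h replicates 3 and 5 and 6h replicate 2, and sets B and D rise together in 6h replicate 9 to 0.82 and 1.23.

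The time of colostrum feeding left no member called. The members had been chosen for a large spread within groups, which widens the error of each comparison, so their counts are set beside those of all genes. Between the 6 h and 0 h calves, edgeR's quasi-likelihood method, with Benjamini-Hochberg adjustment over 11429 genes at 0.05, called 0 of 150 members, and 0% of all genes. At an unadjusted p of at most 0.05, 2 members (1.33%) were listed, against 3.33% of all genes. Of these, 1 was higher at 6 h, against 1.79% of all genes, and 1 was lower, against 1.54%. DESeq2 listed 3 (2%, against 3.08% of all genes) and called 0.

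Between the 12 h and 0 h calves, edgeR called 0 members and 0% of all genes, and 6 members (4%) were listed unadjusted, against 3.5% of all genes. There were 4 members higher at 12 h, against 1.9% of all genes, and 2 lower, against 1.6%. DESeq2 listed 7 (4.67%, against 3.53% of all genes) and called 0, while it called 1 gene that is no member. Between the 12 h and 6 h calves, edgeR called 0 members and 0% of all genes, and 5 members (3.33%) were listed, against 5.12% of all genes. Of the 5, 2 were higher at 12 h, against 2.61% of all genes, and 3 lower, against 2.51%. DESeq2 again listed 7 (4.67%, against 5.11% of all genes) and called 0. A test of any difference among the 3 groups called 0 members and 0% of all genes, with 6 listed unadjusted (4%, against 3.81%), where DESeq2 listed 8 (5.33%, against 3.77%) and called 0. No member separated any pair of groups without overlap. Over all genes, 0% did so between 6 h and 0 h, 0.0175% between 12 h and 0 h and 0.00875% between 12 h and 6 h.

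The median size of the members' log2 fold changes in these 3 pairs of groups, taken in that order, was 0.16, 0.16 and 0.19, against 0.09, 0.09 and 0.10 over all genes. The signed medians were 0.06, -0.01 and -0.01. A large spread within groups by itself enlarges such fold changes, so the contrast in size follows at least in part from the choice of the members. The median over set A was 0.15 for the 6 h calves relative to 0 h, with 21 of 24 members above 0. It was -0.09 for the 12 h calves relative to 0 h, with 9 above 0. For the 12 h calves relative to 6 h it was -0.18, with 1 above 0. The members of set A vary together, so they are not separate observations and these counts were not tested. Each pair of these comparisons shares a feeding group.

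Between 6 h and 0 h, the member with the smallest p was ENSBTAG00000002006. Its lowest, median and highest values were 103.3, 157.7 and 289.7 CPM at 0 h, 156.8, 188.5 and 472.4 at 6 h and 108.0, 144.5 and 252.8 at 12 h. By edgeR it stood 0.53 higher at 6 h on the log2 scale (SE 0.226, adjusted p = 1), and the groups overlapped. Between 12 h and 0 h, as among all 3 groups, it was ENSBTAG00000047529. This gene stood at 31.6, 59.9 and 89.3 CPM at 0 h, 31.3, 62.2 and 88.2 at 6 h and 45.0, 99.8 and 144.5 at 12 h. Relative to 0 h it stood 0.70 higher at 12 h on the log2 scale (SE 0.227, edgeR's adjusted p = 0.9997). Between 12 h and 6 h it was ENSBTAG00000019770, at 245.6, 466.2 and 974.2 CPM at 0 h, 174.7, 346.8 and 678.0 at 6 h and 325.4, 580.3 and 1346 at 12 h. It stood 0.85 higher at 12 h than at 6 h on the log2 scale (SE 0.311, edgeR's adjusted p = 0.926). Each of these differences was within the overlap of the groups.

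Whether calves of one feeding group were more alike than those of another was asked of the absolute deviation of each calf from its group mean, tested with limma over all 11429 genes. The rule used the spread pooled over the groups, which favours genes of very large spread in 1 group, so the members' counts are a description and support nothing about the members. Between 6 h and 0 h, 0 of 150 members were called, against 0.035% of all genes, and 10 members (6.67%) were listed at an unadjusted p of at most 0.05, against 7.78% of all genes. The spread was larger at 6 h in 7 of them, against 5.79% of all genes, and smaller in 3, against 1.99%. Between 12 h and 0 h, 0 were called, against 0% of all genes, and 12 (8%) were listed, against 5.16%. Of these, 8 had the larger spread at 12 h, against 1.37% of all genes, and 4 the smaller, against 3.79%. Between 12 h and 6 h, 0 were called, against 0.00875% of all genes, and 18 (12%) were listed, against 8.82%. In 14 the spread was smaller at 12 h (9.33% of members, against 7.54% of all genes), and in 4 it was larger, against 1.28%. With the log2 library total in the fit, 8 members (5.33%) were listed between 12 h and 6 h, against 6.69% of all genes. With deviations taken from the group median 6 (4%) were listed, against 3.91% of all genes. The 12 h group held the deepest libraries. Its part in the result was not tested beyond these fits.

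The member with the smallest p for a difference in spread was ENSBTAG00000047767, whose low calves were both fed at 12 h. Its mean absolute deviation was 0.42 at 0 h, 0.41 at 6 h and 2.03 at 12 h, on the log2 scale. limma's adjusted p was 0.138 relative to 0 h and 0.0800 relative to 6 h. 12h replicate 6 had 214.0 CPM of this gene and was the calf furthest out for 27 members. In a fit without it, added after the data were seen, limma's adjusted p became 0.0254 and 0.0117. With deviations from the group median, limma's smallest adjusted p over all members was 0.9998 against 0 h and 0.9987 against 6 h. Between 6 h and 0 h the member with the smallest p was ENSBTAG00000031247. It lay between 81.4 and 137.3 CPM at 0 h, between 16.1 and 234.0 at 6 h and between 56.1 and 380.0 at 12 h. Its mean absolute deviation was 0.15, 0.84 and 0.82 in these groups (limma's adjusted p = 0.384 between 6 h and 0 h). The 0 h calves were the narrow group for this gene, but no difference passed the adjustment.

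No member was called for a slope on sequencing depth or on the number of the calf in the labels. A slope on the log2 library total, with feeding group in edgeR's fit, was called for 0 of 150 members, against 0% of all genes, and 5 members (3.33%) were listed unadjusted, against 2% of all genes. The slope was positive in 1 of them, against 1.22% of all genes, and negative in 4, against 0.787%. The positive one was ENSBTAG00000005128, with 0.32 in log2 per doubling of the total (SE 0.15, edgeR's adjusted p = 0.9999). Among the negative ones the smallest p belonged to ENSBTAG00000003408, with -0.38 (SE 0.132, edgeR's adjusted p = 0.9999).

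The labels number the calves from 4108 to 4168 without saying what the number stands for. A slope on it was called for 0 members, against 0% of all genes, and 3 members (2%) were listed unadjusted, against 2.75% of all genes. It was positive in 2 of them, against 1.45% of all genes, and negative in 1, against 1.29%. ENSBTAG00000019015 had the smallest p, with 0.17 in log2 per 10 calf numbers (SE 0.0494, edgeR's adjusted p = 0.9996), and the negative slope was that of ENSBTAG00000033545, -0.13 (SE 0.058, edgeR's adjusted p = 0.9996). DESeq2 was not run on the slopes.

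The extreme values were unevenly spread over the calves. 12h replicate 6 was furthest from its group for 27 members and lay more than 2 SD below it for 26. Most of these belong to set A, for which this calf was the lowest of its group in 24 of 24 members. The counts thus largely restate that set. 6h replicate 2 was furthest out for 25 members, and 6h replicate 9 for 15. No other calf was furthest out for more than 10. The mean squared deviation of the members was 1.06 in 12h replicate 6, against 0.28 to 0.74 in the other 26 calves. Over all eligible genes the highest value belonged to 6h replicate 2 (0.117), and 12h replicate 6 stood at 0.0704, within the range of 0.0372 to 0.117 of all calves.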

How the data were processed

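Ileum RNA of 27 calves, 9 for each feeding time, had been sequenced from TruSeq version 2 libraries, per the labels' protocols, and the strand is not marked. The authors deposited raw counts per Ensembl gene, in 27 columns that were matched to calves by the names in the labels. Per the submitters' processing notes, the tools were HTSeq, SAMtools 1.4, TopHat and TopHat2 2.1.1, and the build UMD3.1. For the annotation release and for reads with several matches, nothing is given in the sources used here. Gene lists could not be applied, since 0 identifiers had a symbol.

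Genes were filtered with filterByExpr by feeding group and scaled by TMM in edgeR 4.0.16 (R 4.3.3). Log2 CPM carry a prior count of 2, and normalised CPM carry none. Tests were edgeR's robust quasi-likelihood test over all 27 libraries and, for spread, limma 3.58.1 with the trend and robust options. SE of fold changes were derived from the F statistic. DESeq2 1.42.0 was an alternative. The edgeR tests between pairs of feeding groups, the slopes and the spread test were tried on simulated data, and the other steps were not. Figures were drawn with matplotlib 3.10.9.

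Members and lists were chosen with earlier results of these data known. The text names members by rule: the 8 of largest SD, the genes on either side of the threshold, the smallest p of each test, the member nearest to each set and the extreme pairs. ENSBTAG00000034645 and ENSBTAG00000032074 were added for their gaps after their values were seen.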

Additional observations from a re-analysis of the deposited data

Results flagged for a closer look

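Among 75 sets of 9 values (25 named genes in 3 feeding groups, on the log2 scale), 11 held a calf whose gap to its neighbour took an unusually large part of the range, where chance gives about 1 in 20. Most of the genes had been chosen for their spread. ENSBTAG00000037605 stood at 2.51 normalised CPM in 0h replicate 9, with the next calf at 69.4. ENSBTAG00000018499 stood apart in each group, at 1.77 CPM in 0h replicate 2 (next 42.1), at 0 in 6h replicate 7 (next 21.4) and at 0.878 in 12h replicate 2 (next 38.2). In 12h replicate 6, 3 members of set A stood apart: ENSBTAG00000042484 at 1.92 CPM (next 23.3), ENSBTAG00000046842 at 89.3 (next 759.2) and ENSBTAG00000048167 at 166.8 (next 1305). ENSBTAG00000046842 was also apart in 6h replicate 1, at 331.2 CPM (next 1057). ENSBTAG00000015056 of set D stood at 37.1 CPM in 0h replicate 3 (next 85.1), and ENSBTAG00000003408, with the strongest negative slope on the library total, at 217.3 in 12h replicate 1 (next 140.9). ENSBTAG00000019091, the first gene left out of the members, stood at 22.2 CPM in 6h replicate 3 (next 35.7).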

How the results depend on the processing

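No member was called for feeding time with RLE factors, no filter on low counts, DESeq2, no robust option, covariates or the compared groups alone, nor, added after seeing the data, without 12h replicate 6 or 7. For the slopes, RLE factors, no robust option, no feeding group and leaving out 12h replicate 7 were run, and 0 members were called. For spread, leaving out 12h replicate 6 raised the members called from 0 to 1 for 12 h against 0 h and from 0 to 1 for 12 h against 6 h, the gene being ENSBTAG00000047767 in both. Over all genes these fits called 1 and 2. The other alternatives left 0 called. With the replicate number as a block, 0 members were called in every test. The labels do not say whether equal numbers pair the calves. Same-numbered libraries deviated together (r over 0.1) in 5 of 27 pairs, with r from -0.301 to 0.265. Only 2 of 27 libraries matched best with their own number. Low correlations of this kind cannot settle whether the calves were paired by design. The block moved the members listed unadjusted for a slope on the calf number from 3 to 13. Replicate numbers follow the order of the calf numbers in each group, so the block takes up most of the calf number. That slope then rests on the little that is left, and no conclusion is drawn from it.

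The rule applied again kept 77 of 150 members with a mean log2 CPM of at least 4 and 91 with at least 6, and 93, 84 and 90 in the 0 h, 6 h and 12 h calves alone. The other settings kept 108 or more, and leaving out 1 calf kept 129 to 147. Thinning to the lowest library total kept 129. The 21 lost had ranks from 98 to 150 by SD. Sets of at least 4 held 44 to 68 members under the added settings.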

Other observations

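The identifiers of set A were unevenly distributed, as noticed after the values were seen. In 20 of its 24 members the number in the Ensembl identifier is above 42000, against 24% of the 150 members and 3.94% of eligible genes. Both of these shares include set A itself. The number is neither a position nor a gene type, and neither was looked up.

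Near-neighbouring identifiers were also members together. The table holds 7 identifiers from ENSBTAG00000024180 to ENSBTAG00000024187. All 7 passed the filter, and 5 of them were members: ENSBTAG00000024180, ENSBTAG00000024183, ENSBTAG00000024184, ENSBTAG00000024186 and ENSBTAG00000024187, the last 3 in set C. After removal of the feeding group means, r between these 5 ran from 0.0899 to 0.811.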
